A study of Rattus norvegicus with 12 samples.

Results

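TGF-beta1 against untreated control cells was the comparison examined in NRK-52E cells, an established rat kidney line of tubular epithelial origin. It was made over all genes of the deposited joint count table, with 3 libraries labelled Control and 3 labelled TGF-beta1, which are 6 of the 12 libraries in the series. All cells were wild type and were grown per the labels to 80% confluence in DMEM with 10% fetal bovine serum. Control cells have no agent in their labels. TGF-beta1 cells received the cytokine for 24 h at a labelled dose of 10 µg/ml, a unit in doubt because doses in ng/ml are usual. The remaining 6 libraries came from cells that were given 2D-EVs or 3D-EVs (extracellular vesicles) after TGF-beta1. Their labels give the same dose and time of TGF-beta1, and 500000000 vesicle particles per ml for 48 h. They entered the model to share its estimate of spread, and their levels are given beside some genes below. The labels do not say whether the libraries of a group came from separate cultures, so the p-values measure the spread between libraries, which may be technical. The labels also leave out when control cells were harvested relative to TGF-beta1 cells.

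TGF-beta1 is a secreted dimer that binds a type II receptor kinase, which activates a type I receptor. The active receptor phosphorylates Smad2 and Smad3, which enter the nucleus with Smad4, and branches also run through MAP kinases. In renal tubular epithelium the cytokine is best known for slowing proliferation and for raising matrix and contractile genes during fibrosis.

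Library totals were 33273281 to 34830269 counts in control cells and 35191827 to 36703469 in TGF-beta1 cells, and 3 counts amounted to 0.0824 to 0.0875 CPM, which is a gene's count relative to the scaled total of its library. Counts at this depth carry counting error, and any limit given from counts covers that error only. The first principal component of the 6 libraries held 34.8% of the variance and separated the groups, with controls at -25.9 to -19.2 and TGF-beta1 libraries at 20.9 to 26.5. The second held 18.2% and spread the TGF-beta1 libraries from -31.2 to 24.03. Of 19 tubular markers in the table, 5 (Pax2, Epcam, Krt18, Umod and Aqp2) had 0 counts in all 6 libraries, Pax8 had 0 to 8 counts and Cdh1, which encodes E-cadherin, 4 to 30. Krt8 was the marker present at a high level, at 1013 ± 6.96 CPM in control and 1216 ± 41.6 CPM in TGF-beta1 cells (SD, n = 3 each). Aqp1 was at 19.8 ± 3.26 CPM in control and 14.96 ± 0.890 CPM in TGF-beta1 cells, and no other tubular marker had a group mean above that of Cubn in TGF-beta1 cells, 1.08 ± 0.143 CPM. Immune markers were at 0 counts for 7 of 16 genes, Ptprc and Tyrobp among them, while Cd14 was at 185 ± 7.64 CPM and rose to 248 ± 3.78 CPM. All 16 summed to 340 to 355 CPM in control and 394 to 404 CPM in TGF-beta1 libraries. The 12 fibroblast and pericyte markers summed to 771 to 815 CPM in control and 725 to 745 CPM in TGF-beta1 libraries. Of 6 tested, 1 was called lower (16.7%, beside 10.2% of all tested genes). By edgeR 0 of 12 mitochondrially encoded genes passed the test, beside 22.0% of all tested genes (1 was at an unadjusted p below 0.05). With DESeq2 0 of them passed after adjustment, and 2 were higher by edgeR without TGF-beta1 library 1. Of 74 ribosomal protein genes 1 passed by edgeR (1.35%), beside the same 22.0%.

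Fibrosis genes served as a check of the treatment. Col1a1 rose by 1.00 on the log2 scale (standard error, SE, 0.0931), Fn1 by 0.68, Acta2 by 0.56 and Ccn2 by 0.52. Vim, which encodes vimentin, was 2333 ± 15.6 CPM in control and 2743 ± 16.6 CPM in TGF-beta1 cells. Col3a1 fell, as given below.

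The response was broad and mostly small. Of 14184 genes tested, 3124 changed at an edgeR adjusted p below 0.05 (22.0%), of which 1676 rose (11.8% of tested genes) and 1448 fell (10.2%). Without scaling beyond the library total the split turned from 53.6% of changed genes higher to 33.8% higher, with the median of all genes moving from -0.005 to -0.0575 on the log2 scale. The median size of a change among called genes was 0.28 on the log2 scale, 502 genes changed at least 1.5-fold (254 higher, 248 lower) and 215 at least 2-fold (118 higher, 97 lower). Against a minimum change of 1.2-fold, 537 genes were called. The 3 TGF-beta1 libraries did not overlap the 3 controls for 5384 tested genes (38.0%). Among the 3124 called genes this held for 3087 (98.8%), so a lack of overlap adds little to a call. The share of genes called varied with their level: 3.56% of 2021 genes below 1 CPM changed, against 24.4% of 7002 genes at 10 to 100 CPM and 53% of 100 genes at 1000 CPM or more. Among the called genes the median size of change ran the other way, from 1.63 on the log2 scale below 1 CPM to 0.27 at 10 to 100 CPM and 0.17 at 1000 CPM or more. Genes that rose took 27.1% of control reads and 31.1% of TGF-beta1 reads, and genes that fell took 12.5% and 10.2%.

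**Figure D1:**
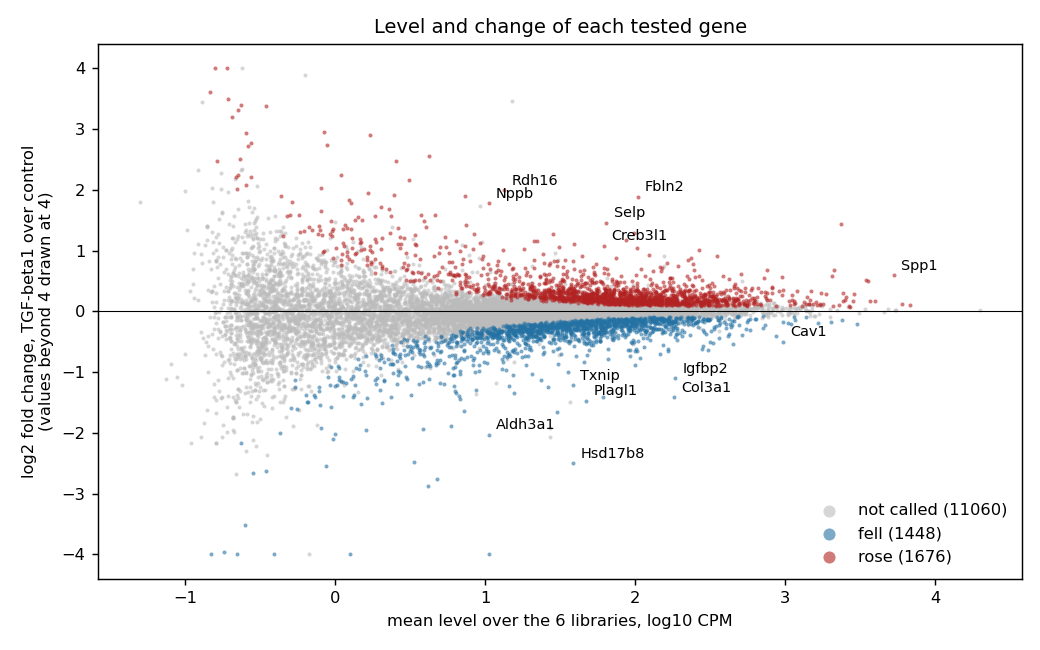
Each point is a tested gene, with its mean level over the 6 libraries (log10 CPM) on the horizontal axis and its log2 fold change, TGF-beta1 over control, on the vertical axis. Red points are the 1676 genes that rose and blue points the 1448 that fell; named genes include Fbln2 at 1.89 and Hsd17b8 at -2.50, and values beyond 4 are drawn at 4.

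Fbln2, Nppb and Selp were among the largest rises at 10 CPM or more, where genes were named only if the groups did not overlap. Fbln2, which encodes the elastic fibre protein fibulin 2, had 47.8, 41.1 and 43.8 CPM in control and 164, 164 and 164 CPM in TGF-beta1 libraries. The 3 treated libraries were nearly equal, and the rise was 3.70-fold (log2 1.89, SE 0.0486, edgeR adjusted p = 2.34e-12). Nppb encodes brain natriuretic peptide, a hormone best known from stretched heart muscle. It had 4.86, 5.78 and 3.64 CPM in control and 17.1, 16.1 and 15.7 CPM in TGF-beta1 libraries, a 3.43-fold rise with no overlap (SE 0.141 on the log2 scale, edgeR adjusted p = 4.43e-07). Selp encodes P-selectin, an adhesion receptor of platelets and activated endothelium. Its level was 33.3, 32.9 and 36.8 CPM in control and 90.9, 99.5 and 92.1 CPM in TGF-beta1 libraries, again without overlap, and the rise was 2.74-fold (edgeR adjusted p = 1.43e-09). Of 5 tested endothelial markers 1 rose (20%, beside 11.8% of all tested genes), and the list median was -0.14 on the log2 scale. The marker that rose was Egfl7, at 9.94 ± 0.258 CPM in control and 13.2 ± 0.754 CPM in TGF-beta1 cells. The summed level of the list was higher, at 13.3 to 14.2 CPM in control and 15.9 to 16.9 CPM in TGF-beta1 libraries.

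The gene with the largest relative rise at this level was Rdh16, which encodes a retinol dehydrogenase. It had 4.97, 5.69 and 5.40 CPM in control and 21.05, 20.6 and 22.5 CPM in TGF-beta1 libraries, a 3.99-fold rise (log2 2.00, SE 0.0924, edgeR adjusted p = 2.22e-09). Creb3l1, a membrane-bound transcription factor that is released by cleavage and drives collagen and secretory genes, went from 39.7 ± 1.26 to 84.04 ± 3.18 CPM (SD, n = 3 each). Olr1, the lectin-like receptor for oxidized low-density lipoprotein, went from 24.9 ± 2.39 to 53.6 ± 3.14 CPM. Each of these genes was above every control in all 3 treated libraries, which was a condition for naming it here. Tnfaip6, a hyaluronan-binding secreted protein, rose 2.03-fold, Spon2, a secreted matrix protein, 2.23-fold, Lama3, a laminin chain, 2.05-fold and Peg10, an imprinted gene of retrotransposon origin, 2.09-fold. Sfn, which encodes the 14-3-3 protein stratifin, rose 2.42-fold, but it overlaps Zdhhc18 in the RefSeq annotation and the labels do not say whether counting used strand. Mpzl3 rested on a single library: it had 15.2, 11.6 and 12.9 CPM in control and 18.1, 17.98 and 52.1 CPM in TGF-beta1 libraries, and without TGF-beta1 library 3 its log2 fold change was 0.44 with an edgeR adjusted p of 0.174. Its call was also lost without control library 2 (0.0826) or control library 3 (0.0691), and against a minimum change of 1.2-fold (glmTreat adjusted p = 0.132).

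Large falls included enzymes, a transcription factor and growth factor binding proteins. Plagl1, an imprinted gene for a zinc finger factor that restrains growth, had 71.1, 68.2 and 68.6 CPM in control and 23.5, 25.7 and 25.9 CPM in TGF-beta1 libraries. Every treated library was below 68.2 CPM, the lowest control, and the fall was 2.77-fold (log2 -1.47, SE 0.0585, edgeR adjusted p = 8.69e-10). Aldh3a1, an aldehyde dehydrogenase that clears lipid aldehydes, had 18.4, 15.1 and 17.5 CPM in control and 4.05, 3.91 and 4.53 CPM in TGF-beta1 libraries. This was a 4.08-fold fall (log2 -2.03, SE 0.165, edgeR adjusted p = 5.81e-07). Igfbp2, which encodes an insulin-like growth factor binding protein, had 266, 232 and 257 CPM in control and 112, 112 and 128 CPM in TGF-beta1 libraries, with no overlap and a 2.14-fold fall. Col3a1, a fibrillar collagen gene, went against Col1a1: it had 279, 216 and 291 CPM in control and 86.97, 97.7 and 111 CPM in TGF-beta1 libraries, a 2.66-fold fall (edgeR adjusted p = 4.41e-07). Col1a1 overlaps Sgca in the RefSeq annotation.

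Txnip, the thioredoxin-interacting protein that responds to glucose, fell 2.32-fold, Mgst1, a microsomal glutathione transferase, 2.19-fold and Klf15, a Kruppel-like factor known as a glucocorticoid target, 2.07-fold. Kitlg, the ligand of the receptor Kit, fell 2.05-fold, Large2, a glycosyltransferase of dystroglycan, 2.35-fold, Olfml2a, a secreted olfactomedin-like protein, 1.99-fold and Ampd3, an AMP deaminase, 1.94-fold. All of them had every treated library below every control, as the rule for naming them required. Omd, a small leucine-rich proteoglycan of bone matrix, fell 1.92-fold and overlaps Cenpp, a centromere gene, in the RefSeq annotation. Tmem176a and Tmem176b, membrane proteins known from immune cells, fell 2.55-fold and 2.36-fold. They overlap each other, so their reads may not be separable, and their summed level was 63.4, 53.2 and 61.8 CPM in control and 23.4, 25.7 and 24.4 CPM in TGF-beta1 libraries. The sum thus fell in every treated library whichever gene the reads belong to.

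**Figure D2:**
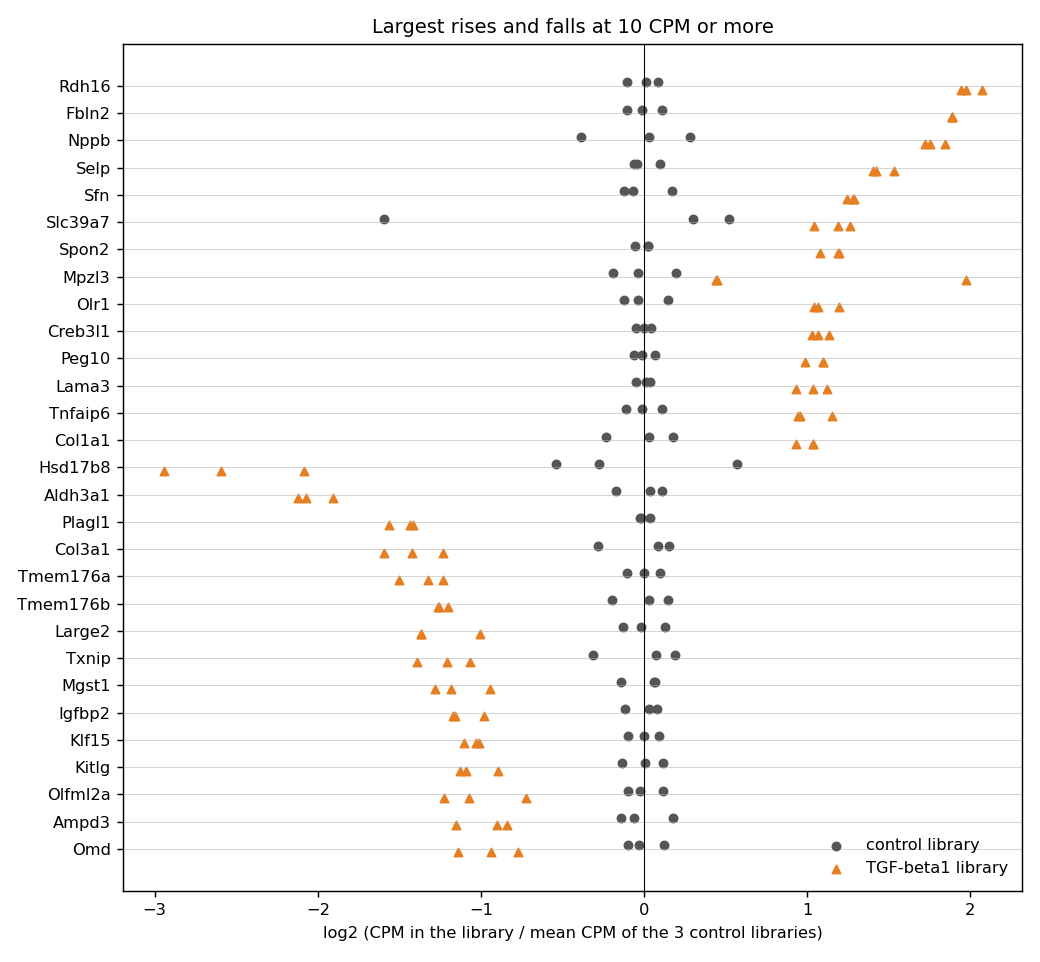
Of the 15 largest rises and 15 largest falls at a mean of 10 CPM or more, 14 rises and all the falls are shown by library, as log2 of the CPM in a library over the mean of the 3 controls (horizontal axis). Circles are control and triangles TGF-beta1 libraries. Treated and control points do not overlap for any of the 29 genes, which was a condition of their choice. The widest spreads within a group are those of Mpzl3 in TGF-beta1 cells and of Slc39a7 in control cells.

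A pair of these genes moved in opposite directions and sits side by side in the genome. Slc39a7, a zinc transporter of the secretory pathway, had 77.04, 17.7 and 65.9 CPM in control and 128, 122 and 110.5 CPM in TGF-beta1 libraries. Hsd17b8, an enzyme of mitochondrial fatty acid synthesis, had 54.3, 97.6 and 45.2 CPM in control and 15.5, 10.9 and 8.55 CPM in TGF-beta1 libraries. Control library 2 was the lowest of the 6 for Slc39a7 and the highest for Hsd17b8. The sum of the pair was 131.3, 115.4 and 111.1 CPM in control and 144, 133.3 and 119 CPM in TGF-beta1 libraries, so the sums of the groups overlapped while the separate values did not. Slc39a7 was called at an edgeR adjusted p of 0.0202, which became 0.0563 without TGF-beta1 library 1 and 0.0539 without TGF-beta1 library 2, and Hsd17b8 at 8.10e-04. Against a minimum change of 1.2-fold Slc39a7 was not called (glmTreat adjusted p = 0.112). The genes are neighbours in the RefSeq annotation (GRCr8), and Slc39a7 also overlaps Rxrb there. Among libraries of vesicle-treated cells the sum was 132.9 to 158.3 CPM, with Hsd17b8 at 10.6 CPM in 3D-EVs library 1 and at 41.1 to 67.4 CPM in the other 5. Whether reads were assigned between the pair differently in different libraries was not tested.

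**Figure D3:**
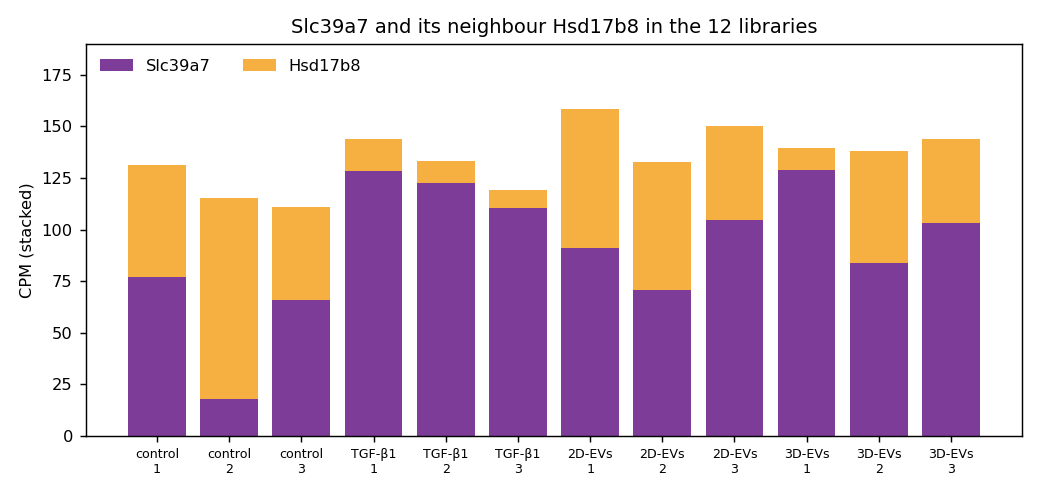
Stacked bars give the CPM of Slc39a7 (purple, below) and Hsd17b8 (orange, above) in each of the 12 libraries, with the group and library number under each bar. The top of the bars stays between 111.1 and 158.3 CPM while the share held by Hsd17b8 is small in the 3 TGF-beta1 libraries and in 3D-EVs library 1.

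By the number of reads gained or lost, other genes led. CPM is not scaled to gene length, so this order is one of reads and not of molecules. Spp1, which encodes osteopontin, gained most, from 4208 ± 249.7 to 6374 ± 140.5 CPM (SD, n = 3 each). Ftl1, the ferritin light chain, went from 2973 ± 104 to 4181 ± 173 CPM, while Fth1, the ferritin heavy chain, went from 1166 ± 24.5 to 1008 ± 35.3 CPM. The chains of this iron store thus moved in opposite directions. Neither overlapped between groups, which the rule for naming them required. Hapln3, a link protein that ties hyaluronan to proteoglycans, went from 1622 ± 68.98 to 2587 ± 35.3 CPM, and Thbs1, thrombospondin 1, which can activate latent TGF-beta, from 1632 ± 115 to 2456 ± 87.04 CPM. Pam, the enzyme that amidates peptide hormones, went from 2612 ± 88.6 to 3177 ± 83.3 CPM, and Hspa5, the main chaperone of the endoplasmic reticulum, from 2176 ± 97.7 to 2671 ± 106 CPM. Actb and Eef1a1, often used as reference genes, were also called higher by 0.13 and 0.11 on the log2 scale. Without scaling beyond the library total their edgeR adjusted p became 0.0728 and 0.255, and Eef1a1 also lost its call in the fit with a replicate block (0.0635) and without control library 3 (0.144), TGF-beta1 library 1 (0.102) or TGF-beta1 library 2 (0.0935).

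Among the largest losses of reads, Bsg, the chaperone of lactate transporters also called CD147, went from 3194 ± 104 to 2780 ± 17.2 CPM. Cav1, the coat protein of caveolae, had 1118, 1120 and 1162 CPM in control and 790.4, 792 and 823 CPM in TGF-beta1 libraries, a 1.41-fold fall with no overlap (edgeR adjusted p = 3.60e-08). Anxa1, an anti-inflammatory annexin, fell by 0.18 on the log2 scale, Tspan8, a tetraspanin, by 0.19 and Ccdc80, a secreted matrix protein, by 0.14. Eln, which encodes elastin, went from 534 ± 64.6 to 368 ± 23.1 CPM, so this elastic fibre gene fell while Fbln2 rose.

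The pathway's own genes were examined by role. Counts of called members, here and for the lists below, stand beside 11.8% higher and 10.2% lower among all tested genes. Of 16 tested ligands of the TGF-beta superfamily, 5 rose and 2 fell, with a list median of -0.02 on the log2 scale beside -0.005 for all tested genes. Tgfb1 had 119, 105 and 118 CPM in control and 186, 187 and 188 CPM in TGF-beta1 libraries, a 1.64-fold rise without overlap (edgeR adjusted p = 7.82e-08). Tgfb3 went the other way, with 577, 586 and 589.8 CPM in control and 444, 438 and 460.3 CPM in TGF-beta1 libraries (log2 -0.39, edgeR adjusted p = 4.83e-07). Tgfb2 rose by 0.31 and Bmp6 by 0.36 on the log2 scale, while Bmp4 fell by 0.37. The 3 TGF-beta isoforms therefore did not move together. Of 17 receptors and Smads, 3 rose and 3 fell: Acvr1, a type I receptor for bone morphogenetic proteins (BMPs), rose by 0.38, Tgfbr2, the type II receptor, fell by 0.16 and Tgfbr3, the co-receptor betaglycan, by 0.69. Without TGF-beta1 library 3 the count that rose was 1.

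Inhibitors and Id genes, the BMP targets that block differentiation factors, were called in 13 of 21 tested cases, 5 higher and 8 lower. The Smad feedback genes Pmepa1 and Skil rose by 0.54 and 0.24 on the log2 scale, and Fst, which encodes the activin trap follistatin, by 0.48. Id1 had 373, 367 and 363 CPM in control and 314, 294 and 294 CPM in TGF-beta1 libraries, with every treated library below every control. Id3 fell by 0.42 and Id2 by 0.43. The count that fell was 4 without control library 1, control library 2 or TGF-beta1 library 2, and 5 without TGF-beta1 library 3.

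Growth factor families were mixed. Of 11 EGF family genes 2 rose and 4 fell: Hbegf, which encodes heparin-binding EGF, rose from 141 ± 6.03 to 196 ± 14.2 CPM, and the ligand Areg (amphiregulin) and the receptor Erbb2 fell by 0.37 and 0.26 on the log2 scale. Without control library 1 or 3, or TGF-beta1 library 1 or 3, 1 EGF family gene rose. Of 27 genes of the PDGF, FGF, VEGF and HGF families 5 rose and 5 fell, with Pdgfb at 0.33 and Vegfa at 0.36 among the rises. Fgf18 had 65.9, 60.9 and 65.6 CPM in control and 42.8, 44.2 and 48.9 CPM in TGF-beta1 libraries, a fall of 0.50 on the log2 scale, and Met, the receptor of hepatocyte growth factor, fell by 0.25. In the IGF system 1 of 17 tested genes rose (2 without TGF-beta1 library 1) and 5 fell, and the falls included the binding proteins Igfbp2, Igfbp6 (-0.63) and Igfbp4 (-0.53), while Igfbp7 rose by 0.23. The binding proteins therefore did not change as a block.

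In the Wnt pathway 5 of 42 tested genes rose and 7 fell, shares of the same order as the 11.8% and 10.2% of all tested genes. Rspo1, the secreted amplifier R-spondin 1, had 11.8, 9.86 and 11.1 CPM in control and 3.65, 3.15 and 3.74 CPM in TGF-beta1 libraries, a 3.10-fold fall (log2 -1.63, SE 0.143, edgeR adjusted p = 1.21e-06). The groups were far apart for this gene. The ligand Wnt5a fell by 0.38, while Wnt7b and Wnt11 rose by 0.78 and 0.86 and the feedback gene Nkd1 by 0.91. Of 20 Notch pathway genes none rose by edgeR (0 also at an unadjusted p below 0.05 and with DESeq2) and 3 fell, the receptor Notch1 from 39.9 ± 2.69 to 24.6 ± 2.15 CPM and Notch3 from 3.05 ± 0.904 to 1.07 ± 0.431 CPM.

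Of 30 tested chemokines and cytokines 3 rose (10%) and 6 fell (20%), beside 11.8% and 10.2% of all tested genes. Cxcl16, a membrane-bound chemokine, went from 98.2 ± 2.48 to 113 ± 1.80 CPM. Il24 had 1.96, 2.68 and 2.07 CPM in control and 5.55, 5.20 and 6.84 CPM in TGF-beta1 libraries, and Ccl2, the monocyte chemoattractant, 2.79, 3.38 and 3.50 and 8.22, 6.80 and 7.69 CPM. The groups did not overlap for Il24 or Ccl2, both at a low level. Csf1, the macrophage growth factor, fell by 0.38 on the log2 scale, Il33, an alarmin, by 0.84 and Kitlg as given above. Of 44 cytokine and TNF receptors 8 rose (18.2%) and 10 fell (22.7%). Tnfrsf12a, the receptor of TWEAK, rose from 179 ± 5.64 to 243 ± 3.89 CPM, and Il21r, the interleukin 21 receptor, from 0.191 ± 0.0746 to 1.49 ± 0.240 CPM. The count that rose was 5 without control library 3 or TGF-beta1 library 2. Complement genes mostly fell among those called, 5 of 17 tested with 1 higher: Masp1, a lectin pathway protease, fell 2.53-fold and Serping1, the C1 inhibitor, 2.30-fold. No complement gene was called higher without control library 2, TGF-beta1 library 2 or TGF-beta1 library 3.

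Genes of vasoactive, prostaglandin and purine signalling moved one way when called. Of 26 tested members 7 rose and none fell by edgeR (1 lower at an unadjusted p below 0.05 and 1 with DESeq2), with a list median of 0.10 on the log2 scale. The count of 7 was the same under every alternative, including a minimum change of 1.2-fold, and without control library 2, 1 gene was called lower. Beside Nppb, Enpp1, an enzyme that splits extracellular ATP, had 222, 199 and 221 CPM in control and 308, 321 and 332 CPM in TGF-beta1 libraries (log2 0.58, edgeR adjusted p = 1.90e-07). F2r, the thrombin receptor PAR1, had 405, 416 and 420.1 CPM in control and 533, 534 and 556 CPM in TGF-beta1 libraries (log2 0.39, edgeR adjusted p = 4.26e-07). Neither gene's groups overlapped. A further 3, named after their values were seen, were Edn1 (endothelin 1), which went from 109 ± 5.71 to 182 ± 2.88 CPM, F2rl1 (the receptor PAR2), from 89.7 ± 3.43 to 116 ± 4.40 CPM, and Ptgs2 (cyclooxygenase-2), from 11.7 ± 0.197 to 19.04 ± 0.875 CPM.

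In the plasminogen system and serpin list 11 of 29 tested genes rose and 4 fell. Plaur, the urokinase receptor, had 88.2, 78.00 and 84.5 CPM in control and 142, 129 and 137 CPM in TGF-beta1 libraries (log2 0.70, edgeR adjusted p = 1.77e-07), with every treated library above every control. Serpinb6a, an intracellular protease inhibitor, went from 139 ± 2.24 to 203 ± 6.28 CPM. Serpinb9 and Serpinb7 fell by 0.25 and 0.22 on the log2 scale. Serpins thus moved in both directions.

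Of 27 tested collagen-processing enzymes 17 rose (63%, beside 11.8% of all tested genes) and 2 fell, and the list median was 0.18 on the log2 scale. The crosslinking oxidases led: Loxl2 had 205, 198 and 207 CPM in control and 291, 299 and 314 CPM in TGF-beta1 libraries (log2 0.57, edgeR adjusted p = 3.83e-08), and Lox and Loxl4 rose by 0.39 and 0.31. Plod2, a lysyl hydroxylase of collagen crosslinks, fell by 0.15. Against a minimum change of 1.2-fold, 3 of the 17 rises were called, and the falls numbered 1 in 5 of the 6 fits without a library, all but that without TGF-beta1 library 1. Of 42 matrix proteases and inhibitors 11 rose and 3 fell, with Timp1, a protease inhibitor, at 281 ± 7.59 CPM in control and 352 ± 11.98 CPM in TGF-beta1 cells, and with Mmp2, a gelatinase, at 34.7 ± 4.66 and 24.1 ± 1.56 CPM. The rises numbered 7 without scaling beyond the library total, 7 without TGF-beta1 library 2 and 6 without TGF-beta1 library 3.

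Of 59 proteoglycan and glycosaminoglycan genes 17 rose and 10 fell. Beside Hapln3, the cell surface proteoglycan Gpc1 rose by 0.52 and the chondroitin polymerising factor Chpf2 by 0.41 on the log2 scale. Csgalnact1, which starts chondroitin chains, had 9.58, 10.1 and 9.29 CPM in control and 2.73, 3.93 and 4.29 CPM in TGF-beta1 libraries, a 2.64-fold fall without overlap. Hs3st1, a heparan sulfate sulfotransferase, fell by 0.78. Of 26 integrin genes 9 rose and 2 fell: Itgb5, the integrin beta5 chain, had 787, 729.9 and 793 CPM in control and 1102, 1164 and 1164 CPM in TGF-beta1 libraries (log2 0.57, edgeR adjusted p = 1.38e-07). Itga6, which pairs with beta1 or beta4 chains to bind laminin, rose by 0.42, while the laminin-binding Itgb4 and Itga7 fell by 0.99 and 0.92. Laminin-binding subunits thus went both ways.

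Actin cytoskeleton and focal adhesion genes rose in 33 of 63 tested cases (52.4%, beside 11.8% of all tested genes) and fell in 6 (9.52%, beside 10.2%). The list median was 0.15 on the log2 scale. Tagln, the smooth muscle gene for transgelin, had 410.2, 414 and 384 CPM in control and 635, 608 and 613 CPM in TGF-beta1 libraries, and Cald1, caldesmon, 699.8, 706 and 723 and 906, 914 and 953 CPM. No treated library overlapped a control in either gene. Ezr, which encodes ezrin of epithelial microvilli, fell by 0.12, a call lost without TGF-beta1 library 1 (edgeR adjusted p = 0.0532). Against a minimum change of 1.2-fold 6 of the rises were called, and without TGF-beta1 library 1 the falls numbered 3.

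**Figure D4:**
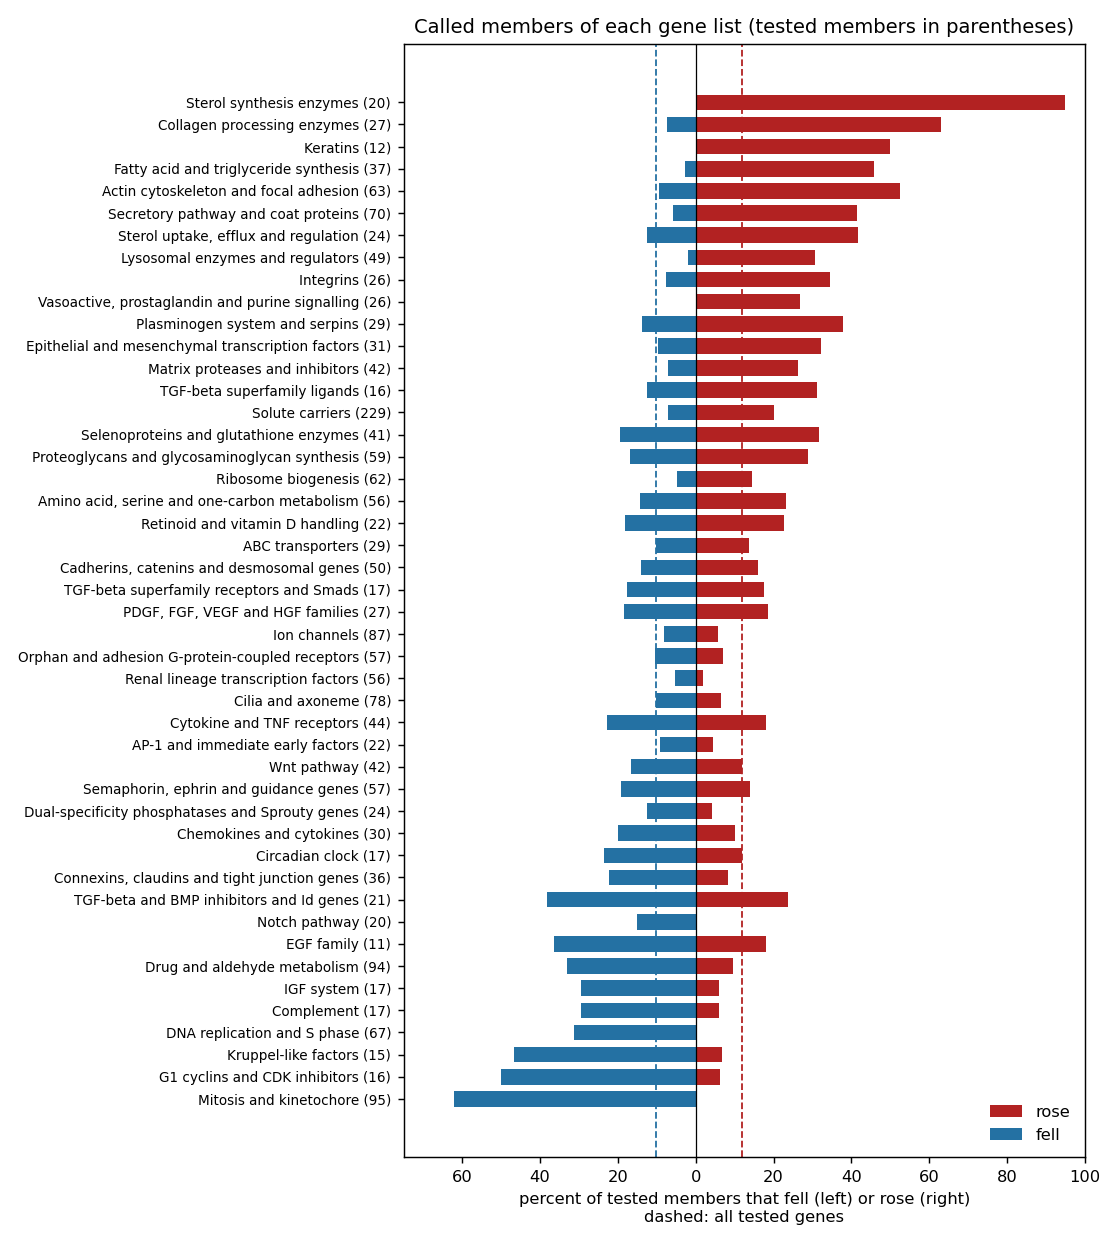
Bars give, for 46 of the 47 gene lists, the percent of tested members that rose (red, right) and that fell (blue, left), with the number tested in parentheses. Dashed lines mark 11.8% higher and 10.2% lower among all tested genes; sterol synthesis enzymes are at the top and mitosis genes at the bottom.

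Secretory pathway genes leaned upward, with 29 of 70 tested genes higher (41.4%, beside 11.8% of all tested genes) and 4 lower (5.71%, beside 10.2%). The list median was 0.11 on the log2 scale. Furin, a protease that cuts proproteins such as pro-TGF-beta1, had 383, 393 and 395 CPM in control and 521, 514 and 528 CPM in TGF-beta1 libraries (log2 0.42, edgeR adjusted p = 1.07e-07). Sec11c, a subunit of signal peptidase, went from 47.1 ± 2.99 to 76.9 ± 2.33 CPM, whereas Spcs2, an accessory subunit of the same enzyme, fell by 0.17. Without scaling beyond the library total 15 secretory genes rose, and against a minimum change of 1.2-fold 3 did. The secretory falls numbered 2 without control library 3 or TGF-beta1 library 2. Among 49 lysosomal genes 15 rose (30.6%) and 1 fell (2.04%). Neu1, the lysosomal sialidase, had 158, 152 and 172 CPM in control and 281, 299 and 285 CPM in TGF-beta1 libraries (log2 0.84, edgeR adjusted p = 5.60e-09), and Ctsf, cathepsin F, rose 2.69-fold from 4.04 ± 0.0627 CPM. The lysosomal count was 9 without control library 2 or without TGF-beta1 library 2.

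Sterol synthesis was the list with the largest share of called members. Of 20 tested enzymes 19 rose and none fell by edgeR (0 lower also at an unadjusted p below 0.05 and with DESeq2), with a list median of 0.33 on the log2 scale, and the exception was Ggps1, which makes geranylgeranyl diphosphate, at 19.2 ± 0.642 CPM in control and 20.6 ± 0.673 CPM in TGF-beta1 cells (log2 0.10, edgeR adjusted p = 0.412). Mvd, which makes isopentenyl diphosphate, had 142, 132 and 138 CPM in control and 212, 199 and 194 CPM in TGF-beta1 libraries. Its groups did not overlap, and the rise was 0.55 on the log2 scale (edgeR adjusted p = 3.42e-06). Of 24 genes of sterol uptake, efflux and regulation 10 rose and 3 fell (1 without control library 1 or TGF-beta1 library 2). The lipoprotein receptors Lrp8 and Vldlr rose by 0.70 and 0.48.

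In fatty acid and triglyceride synthesis 17 of 37 tested genes rose and 1 fell (2 without TGF-beta1 library 3), with a list median of 0.13. Fasn, fatty acid synthase, had 291, 283 and 287 CPM in control and 379, 393 and 378 CPM in TGF-beta1 libraries, a rise of 0.42 on the log2 scale without overlap (edgeR adjusted p = 1.77e-07). Acss2 and Acsl5, which activate acetate and long-chain fatty acids, rose by 0.58 and 0.38. Against a minimum change of 1.2-fold, 6 of the 19 sterol enzymes and 6 of the 17 fatty acid genes were called. The sterol count was 18 or 19 whichever of the 6 libraries was left out.

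**Figure D5:**
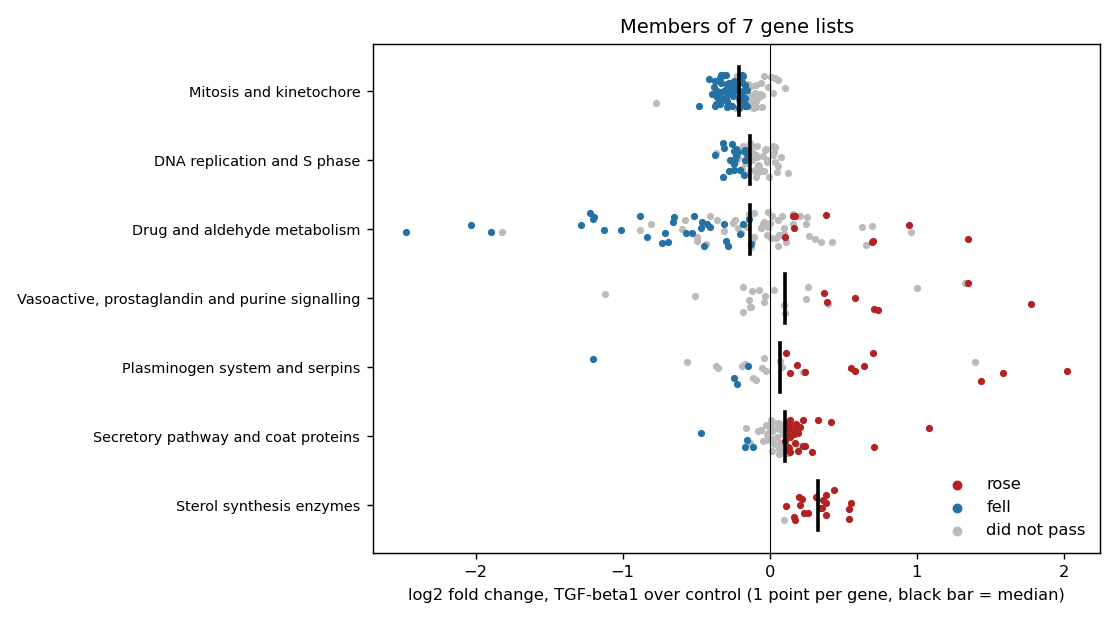
Each point is a tested member of 1 of 7 gene lists, placed by its log2 fold change, TGF-beta1 over control (horizontal axis), with a black bar at the list median. Red members rose, blue members fell and grey members did not pass; mitosis genes form a narrow cloud with a median of -0.21 and sterol enzymes one with a median of 0.33, while drug and aldehyde genes are spread widely.

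Drug and aldehyde metabolism leaned downward, with 31 of 94 tested genes lower (33%, beside 10.2% of all tested genes) and 9 higher (9.57%, beside 11.8%). The list median was -0.14 on the log2 scale. Ephx1, microsomal epoxide hydrolase, had 132, 129 and 128 CPM in control and 66.3, 69.2 and 75.3 CPM in TGF-beta1 libraries, a 1.85-fold fall without overlap (edgeR adjusted p = 1.31e-07). Tst, the sulfur transferase rhodanese, had 9.72, 9.13 and 9.35 CPM in control and 2.44, 2.84 and 2.31 CPM in TGF-beta1 libraries, a 3.71-fold fall. Sult1a1, a phenol sulfotransferase, fell 5.55-fold from 5.68 ± 0.636 to 1.02 ± 0.141 CPM. Against this lean, Cyp2s1, a cytochrome P450 of epithelia, rose from 16.7 ± 1.77 to 32.2 ± 3.01 CPM, and the sterol enzyme Cyp51, also in this list, from 525 ± 18.7 to 684 ± 8.11 CPM. Against a minimum change of 1.2-fold, 15 of the falls were called.

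Of 22 tested retinoid genes 5 rose (22.7%) and 4 fell (18.2%), beside 11.8% and 10.2% of all tested genes. While the dehydrogenases Rdh16 and Rdh11 rose, Aldh1a2, which makes retinoic acid, had 223, 214 and 219.8 CPM in control and 152, 155 and 167 CPM in TGF-beta1 libraries (log2 -0.47, edgeR adjusted p = 1.17e-06). Dhrs3, which reduces retinal, fell by 0.55. Among 41 selenoprotein and glutathione genes 13 rose and 8 fell. Ggt1, the brush border gamma-glutamyl transferase, had 163, 159 and 173 CPM in control and 313, 309 and 292 CPM in TGF-beta1 libraries, a 1.85-fold rise (log2 0.88, SE 0.0385, edgeR adjusted p = 1.43e-09). Selenbp1, which oxidises methanethiol, had 7.05, 6.68 and 8.15 CPM in control and 1.32, 0.787 and 0.879 CPM in TGF-beta1 libraries, a 7.31-fold fall. The rises of this list numbered 8 without control library 2. In amino acid metabolism 13 of 56 genes rose and 8 fell: Asl, which makes arginine, rose by 0.50 and Bcat1, a branched-chain transaminase, by 0.85, while Glul, glutamine synthetase, fell by 0.43 and the serine pathway genes Psat1 and Shmt1 by 0.39 each.

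Many genes of mitosis, and fewer of DNA replication, fell by small amounts. Of 95 tested mitosis and kinetochore genes 59 fell (62.1%, beside 10.2% of all tested genes) and none rose. The list median was -0.21 on the log2 scale. Of 67 DNA replication and S-phase genes 21 fell (31.3%) and none rose, with a median of -0.14. By edgeR 1 gene of each list was higher at an unadjusted p below 0.05, and with DESeq2 none was called higher. Without TGF-beta1 library 3, 1 gene of each list was called higher, as was 1 mitosis gene without control library 2. Top2a, topoisomerase II, had 237, 233 and 242 CPM in control and 192, 185 and 189 CPM in TGF-beta1 libraries, and Mki67, the proliferation antigen Ki-67, 147, 159 and 151 and 124, 121 and 128 CPM. All treated libraries lay below all controls in both genes, and the falls were 0.33 and 0.29 on the log2 scale (edgeR adjusted p = 6.21e-06 and 4.05e-05). Tk1, thymidine kinase, fell by 0.32, Pold2, a subunit of DNA polymerase delta, by 0.37 and Mcm3, of the replicative helicase, by 0.24. Against a minimum change of 1.2-fold, none of the mitosis and none of the S-phase genes was called by edgeR's glmTreat (16 and 2 lower at an unadjusted p below 0.05), and without that minimum DESeq2 called 64 and 22 lower. S-phase falls numbered 33 without scaling beyond the library total and 13 without control library 2. In bulk RNA, fewer dividing cells and less of these transcripts per cell cannot be told apart.

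Among 16 G1 regulators 8 fell and 1 rose, and members of opposite action fell alike. The inhibitors Cdkn2c and Cdkn1b fell by 0.43 and 0.21, as did the cyclin Ccnd1 (by 0.18), named after its values were seen. Cdkn1a, which encodes p21 and was also named after its values were seen, was at 292 ± 6.75 CPM in control and 295 ± 8.45 CPM in TGF-beta1 cells and did not pass (log2 0.01, edgeR adjusted p = 0.852). Without control library 1, 5 fell and none rose.

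The promoters of these genes were searched for motif letters. Windows of 250 bases before the RefSeq start (GRCr8) were at hand for 9715 of 14184 tested genes, and each motif was searched on both strands. Shares of a list count all its tested members with a window, called or not. The cell cycle homology region TTTGAA was in 34 of 81 mitosis windows (42%), beside 10.3% of tested genes with a window and 16% of all 27457 windows. Among 1073 windows of genes that fell it was in 13%. CCAAT was in 63% of mitosis windows beside 36.1% of tested genes and 34.3% of all windows, and in 80% of the 15 sterol enzyme windows. The E2F motif TTTGGCGC was in 12.7% of 55 S-phase windows beside 0.782% of tested genes and 0.426% of all windows, and the E2F motif TTTCCCGC in 12.7% beside 1.83% and 0.856%. The sterol element TCACNCCAC was in none of the 15 sterol windows and 0.978% of tested genes, and the short Smad motif CAGACA in 12.3% of 1229 windows of genes that rose beside 13.3% of tested genes and 16.9% of all windows. A match is a description of letters and not of binding. The windows of Top2a and Tyms (thymidylate synthase, chosen after the shares were seen) show the mitotic and the S-phase motifs. That of Nppb is the window of a leading rise and holds the short Smad motif. The window of Fbln2, also a leading rise, held neither CAGACA nor the Smad motif GTCTAGAC and is not printed.
Top2a (chr10:84473094-84473343, minus strand, inverted CCAAT boxes and the inverted homology region in capitals): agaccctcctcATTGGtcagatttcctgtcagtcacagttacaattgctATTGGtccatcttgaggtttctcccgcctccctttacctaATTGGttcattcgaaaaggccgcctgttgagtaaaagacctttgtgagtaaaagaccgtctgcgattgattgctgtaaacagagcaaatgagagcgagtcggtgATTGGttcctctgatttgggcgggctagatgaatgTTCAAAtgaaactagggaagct
Tyms (chr9:120776084-120776333, minus strand, the E2F motif in capitals): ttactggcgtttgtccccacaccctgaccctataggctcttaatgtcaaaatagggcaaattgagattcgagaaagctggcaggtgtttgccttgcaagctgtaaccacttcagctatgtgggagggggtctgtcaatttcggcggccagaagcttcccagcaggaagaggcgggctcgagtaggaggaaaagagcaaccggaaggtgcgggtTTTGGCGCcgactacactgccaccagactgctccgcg
Nppb (chr5:163699758-163700007, plus strand, the inverted short Smad motif in capitals): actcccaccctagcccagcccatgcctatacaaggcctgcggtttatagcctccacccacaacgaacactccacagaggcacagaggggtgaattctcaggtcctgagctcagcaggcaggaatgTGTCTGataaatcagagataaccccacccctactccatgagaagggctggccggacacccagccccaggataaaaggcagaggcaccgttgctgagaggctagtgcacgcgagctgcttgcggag
In the Top2a window 4 inverted CCAAT boxes began 239, 201, 161 and 57 bases before the start and the homology region 22 bases before it. In the Tyms window the E2F motif began 37 bases before the start, and Tyms went from 98.9 ± 4.59 to 79.1 ± 1.61 CPM (log2 -0.32, edgeR adjusted p = 0.0013). The Nppb motif began 125 bases before the start.

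Transcription factors of epithelial and mesenchymal state rose in 10 of 31 tested cases and fell in 3 (1 without TGF-beta1 library 3). Elf5, an epithelial ETS factor, had 1.02, 1.37 and 1.29 CPM in control and 7.62, 7.73 and 6.49 CPM in TGF-beta1 libraries, a 5.92-fold rise from a low level (SE 0.160 on the log2 scale, edgeR adjusted p = 4.56e-08). Foxc2 and Snai1, known for mesenchymal programmes, rose 2.23-fold and 1.51-fold. Of 56 renal lineage factors 1 rose, or 2 without TGF-beta1 library 3 (Hoxb9, from 0.714 ± 0.0851 to 2.11 ± 0.0942 CPM) and 3 fell, Osr2 by 0.47, Eya1 by 0.25 and Hoxa10 by 0.22 on the log2 scale. These shares were below those of all tested genes.

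Kruppel-like factors fell in 7 of 15 tested cases and rose in 1, with a list median of -0.17 on the log2 scale. Klf15 had 20.5, 19.2 and 21.9 CPM in control and 10.1, 10.2 and 9.56 CPM in TGF-beta1 libraries, and Klf10, known as an early TGF-beta target, 68.2, 61.8 and 73.7 and 51.98, 51.2 and 50.6 CPM. Groups were separate in both, with falls of 1.05 and 0.41. Klf5 fell by 0.31 and Klf13 rose by 0.40. Klf6, named after its values were seen, was called lower although control library 2 was at the treated level: it had 60.5, 11.5 and 64.7 CPM in control and 14.3, 14.2 and 14.8 CPM in TGF-beta1 libraries.

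Immediate early genes were mostly not called, 1 of 22 higher and 2 lower. The falls numbered 0 without control library 3 or TGF-beta1 library 2 or 3, and the rises 0 without control library 1 or 2 or TGF-beta1 library 1 and 2 without TGF-beta1 library 3. Fos had 286, 289 and 439.9 CPM in control and 258, 219 and 208 CPM in TGF-beta1 libraries, and control library 3 stood apart. Its fall of 0.56 on the log2 scale (edgeR adjusted p = 0.0421) was lost with DESeq2 (0.1) and without control library 3 (0.23), TGF-beta1 library 2 (0.122) or TGF-beta1 library 3 (0.131). The feedback genes Spry2 and Spry4, inhibitors of MAP kinase signalling, fell by 0.34 and 0.33. In their list of 24 tested dual-specificity phosphatase and Sprouty genes 1 rose (4.17%) and 3 fell (12.5%), with a median of 0.0054. All tested genes had 11.8% and 10.2%. Against a minimum change of 1.2-fold 0 were called by edgeR's glmTreat (3 lower at an unadjusted p below 0.05). The rises numbered 0 to 2 when a library was left out and 3 with the 6 libraries alone. Of 17 clock genes 2 rose and 4 fell, and 1 rose with the 6 libraries alone or without control library 1, control library 2 or TGF-beta1 library 3. Dbp, a clock output factor, had 28.6, 29.9 and 28.6 CPM in control and 18.2, 18.1 and 21.6 CPM in TGF-beta1 libraries, the related Hlf fell 4.06-fold from 1.61 ± 0.349 CPM, and Bhlhe40, a clock repressor that is also induced by many stimuli, rose by 0.26. Harvest times are not in the labels, and their part in the clock genes was not tested.

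Of 36 connexins, claudins and tight junction genes 8 fell and 3 rose. Cgn, which encodes cingulin, had 68.96, 67.2 and 66.9 CPM in control and 46.5, 48.3 and 49.7 CPM in TGF-beta1 libraries, a fall of 0.49 on the log2 scale without overlap (edgeR adjusted p = 3.49e-05). Tjp1, the scaffold ZO-1, fell by 0.22 and Tjp3, the scaffold ZO-3, by 1.11, while the connexin Gja1 rose by 0.21. Of 50 cadherin, catenin and desmosomal genes 8 rose (16%) and 7 fell (14%), beside 11.8% and 10.2% of all tested genes. Cdh3, P-cadherin, had 476, 475 and 487 CPM in control and 360.2, 366 and 386 CPM in TGF-beta1 libraries, and the protocadherin Pcdh1 and plakoglobin (Jup) rose by 0.47 and 0.25. The falls numbered 2 without control library 3 or TGF-beta1 library 1 and 4 without TGF-beta1 library 2. Of 12 tested keratins 6 rose and none fell by edgeR (0 lower also at an unadjusted p below 0.05 and with DESeq2), and the list median was 0.41. Krt8 rose by 0.26, while Krt79 and Krt81 rose from 1.68 ± 0.357 and 0.228 ± 0.0260 CPM to 3.61 ± 0.617 and 0.808 ± 0.175 CPM.

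Of 229 solute carriers 46 rose (20.1%, beside 11.8% of all tested genes) and 16 fell (6.99%, beside 10.2%). Without scaling beyond the library total 34 rose and 24 fell, and against a minimum change of 1.2-fold 3 rose and 3 fell. Slc16a1, the monocarboxylate transporter MCT1 that needs Bsg at the membrane, had 373, 374 and 367 CPM in control and 236, 234 and 246 CPM in TGF-beta1 libraries, a 1.55-fold fall (log2 -0.64, SE 0.0346, edgeR adjusted p = 1.20e-08). Bsg and this partner therefore both fell. Slc9a3r1, the scaffold NHERF1 of brush border transporters, fell by 0.37, while the creatine transporter Slc6a8 rose by 0.36 and the phosphate transporter Slc20a1 by 0.41. The water channel Aqp1 fell from 19.8 ± 3.26 to 14.96 ± 0.890 CPM, a call lost without control library 3 (edgeR adjusted p = 0.141), TGF-beta1 library 2 (0.0517) or TGF-beta1 library 3 (0.0889). Of 29 ABC transporters 4 rose, with Abcg2, an efflux pump for drugs and urate, at 25.97 ± 1.28 CPM in control and 39.6 ± 0.805 CPM in TGF-beta1 cells, and 3 fell. Ion channels were called in 12 of 87 cases, 5 higher and 7 lower, below the share of all tested genes, and without control library 3 or TGF-beta1 library 2 the counts were 3 higher and 2 lower. The falls numbered 4 without control library 1 or TGF-beta1 library 1, and the rises 3 without control library 1.

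Of 57 guidance genes 8 rose (14%) and 11 fell (19.3%), beside 11.8% and 10.2% of all tested genes. Sema3a, a secreted semaphorin, had 136, 134 and 142 CPM in control and 86.4, 90.2 and 95.96 CPM in TGF-beta1 libraries, a fall of 0.59 on the log2 scale (edgeR adjusted p = 1.32e-07), and Sema7a, a membrane-anchored semaphorin, rose by 0.78. Flrt2 and Flrt3, related adhesion proteins, went apart: Flrt2 had 23.3, 21.9 and 23.04 CPM in control and 36.6, 38.9 and 38.4 CPM in TGF-beta1 libraries, and Flrt3 109, 113 and 107 and 78.1, 78.7 and 74.8 CPM. Neither overlapped between groups. The falls numbered 7 without control library 1 or 3 or TGF-beta1 library 1 or 2, and the rises 5 without control library 3 or TGF-beta1 library 3. Adgrg1, an adhesion G-protein-coupled receptor, rose from 30.7 ± 1.78 to 57.6 ± 4.31 CPM among 57 such receptors, of which 4 rose and 6 fell. Of 78 cilium genes 5 rose (6.41%) and 8 fell (10.3%). Ribc2, an axonemal protein, rose 5.55-fold from 0.771 ± 0.158 CPM, and the polycystin genes Pkd1 and Pkd2 rose by 0.27 and 0.31. Of 62 ribosome biogenesis genes 9 rose and 3 fell, and the split was 5 and 9 without scaling beyond the library total. The rises also numbered 5 without control library 1 or TGF-beta1 library 3.

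The leading genes can be set beside the vesicle-treated cells, whose comparisons with control use the same 3 control libraries. Labels of these cells give 48 h with vesicles beside 24 h of TGF-beta1, so time may differ as well as vesicles. Fbln2 was at 149 ± 5.77 CPM with 2D-EVs and 152 ± 4.66 CPM with 3D-EVs (SD, n = 3 each), beside 164 ± 0.150 CPM with TGF-beta1 alone. Plagl1 was at 25.3 ± 1.31 and 24.6 ± 1.07 CPM, beside 25.03 ± 1.36 CPM. Of the 15 leading rises, 13 were above every control in all 6 vesicle libraries, and of the 15 leading falls 14 were below every control. The exceptions were Slc39a7 (5 of 6 libraries), Mpzl3 (4 of 6) and Hsd17b8 (2 of 6). All these genes were chosen for lying apart from the same 3 controls, and the vesicle-treated cells also received TGF-beta1. The counts are therefore no independent support, and the same share over all tested genes was not computed. Olr1 was at 37.2 ± 1.35 CPM with 2D-EVs and 48.55 ± 3.28 CPM with 3D-EVs, beside 24.9 ± 2.39 CPM in control and 53.6 ± 3.14 CPM in TGF-beta1 cells. Other leading rises, Peg10 among them, also had vesicle-group means between those of control and TGF-beta1 cells, and others, Selp among them, did not.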

How the data were processed

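RNA was extracted with TRIzol, treated with DNase I and, per the labels' protocols, prepared for sequencing using a Hieff kit from Yeasen. DESeq2, StringTie, HISAT2 and fastp are listed with the build mRatBN7.2 in the submitters' processing notes; their versions, the use of strand and the annotation release are not stated there. The authors deposited raw counts, whole numbers without normalization, for 24660 genes, of which 5394 were at 0 throughout. A joint table was used, to which all 12 single-library tables were equal, and 0 sample columns remained outside it. Counts of 2 (5687 cells) outnumbered counts of 1 (1514 cells), so very low counts are not plain tallies of reads.

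The test was edgeR 4.0.16 in R 4.3.3. filterByExpr with a minimum count of 10 kept 14184 genes. All 12 libraries (3 in each of 4 groups) entered a fit of group means with TMM factors, and TGF-beta1 minus Control was tested with the quasi-likelihood F-test, with Benjamini-Hochberg adjustment over these genes and a threshold of 0.05. The standard error is the log2 fold change over the root of F. CPM are TMM-scaled. On simulated data at these sizes, 80 of 100 genes changed 1.5-fold and 92 of 100 changed 2-fold were recovered, with 8 false calls. No other gene was changed there, and libraries were drawn independently. The simulation therefore does not describe changes as small as the median among called genes, 0.28 on the log2 scale. Within the 2 groups, chi-square per degree of freedom between libraries was 6.67 to 9.47, above counting error alone. Same-numbered libraries of the 2 groups had residual correlations of 0.0659 to 0.1445, not all above 0.1, so numbers were not used to pair libraries. Alternatives were RLE or no scaling, no filter, DESeq2 1.42.0, the 6 libraries alone, a replicate block, a minimum change of 1.2-fold (glmTreat) and leaving out each of the 6 libraries.

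The comparison, the 47 response lists and the marker lists were chosen with earlier results of these data known. Named genes were the 15 largest rises and 15 largest falls in log2 fold change among called genes that averaged 10 CPM or more, did not overlap between groups and had a proper symbol; the 10 largest rises and falls in CPM; up to 3 members that rose and 3 that fell per list by p; and a fibrosis panel. Some genes and 1 list that these rules name are not reported here. Symbols are those of the table, and 16794 of 24660 matched a RefSeq table of 47357 rat genes. That table served for overlaps and neighbours only. Promoter windows were matched by symbol, and the first listed window was used.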

Additional observations from a re-analysis of the deposited data

How the results depend on the processing

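Against 3124 changed genes (1676 higher, 1448 lower), leaving out each library in turn gave 2419 to 2555 changed, 1337 to 1423 higher and 1078 to 1150 lower, and 169 to 199 genes changed at least 2-fold (215 with all libraries). Without scaling beyond the library total 2243 genes fell and 1144 rose. A minimum change of 1.2-fold left 537 (296 higher, 241 lower), of which 142 had changed at least 2-fold. With the replicate block 2858 genes changed (1550 higher, 1308 lower), with 6 of 6 libraries correlating best with their own number, a hint from the data and not from the design. RLE scaling, no filter, DESeq2 and the 6 libraries alone gave 3135, 2984, 3301 and 3076. Of 291 called genes with alternatives computed, 152 kept direction and call throughout and 36 lost the call under an alternative other than the 1.2-fold minimum; the cause was not tested. Of genes that did not pass, Hba-a2 (0.46 on the log2 scale) ranged from -0.4427 without TGF-beta1 library 1 to 0.8908 without library 3, and Cdkn1a (0.01) was -0.03894 without scaling and -0.008631 to 0.03415 when a library was left out. Depth limits weakly expressed genes: below 1 CPM, where 3 counts are 0.0824 to 0.0875 CPM, 3.56% of genes were called.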

Other observations

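Cfl1, which encodes the actin-severing protein cofilin 1, fell into 2 separate ranges of level across the 12 libraries and was named after its values were seen. It had 427, 443 and 418 CPM in control and 704, 460.1 and 660.4 CPM in TGF-beta1 libraries, and did not pass (log2 0.50, edgeR adjusted p = 0.0639). With no filter, with the 6 libraries alone and without TGF-beta1 library 2 the edgeR adjusted p was 0.0211, 0.0118 and 0.0201. Among vesicle-treated cells 1 library in each group was at the high level, 654 CPM with 2D-EVs and 699 CPM with 3D-EVs, and the other 4 were at 428 to 457 CPM. Klf6 was at 11.46 to 13.96 CPM in the 6 vesicle-treated libraries, within the range of TGF-beta1 cells and control library 2 or just below it. Whether counts were assigned differently between libraries was not tested for either gene.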
